A study of Mus musculus with 135 samples.

Results

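The germ cell peak set held 3151 peaks added from F1 hybrids, recognised by an identifier that starts with PEAKF1, among 67114 peaks in all. A peak is a stretch of genome enriched for H3K4me3, histone H3 trimethylated at lysine 4, in chromatin immunoprecipitation sequencing, and the count table gave its reads in 79 libraries. The libraries came from a crude preparation of germ cells of male mice at 14 days post-partum, with chromatin cut by MNase. They comprised 3 of C57BL/6J (B6), 3 of DBA/2J (D2), 4 of their hybrid (B6xD2)F1 and 69 of 61 BXD strains, of which 7 had more than 1 library. The identifiers divide the F1 peaks into 1568 found on both genomes, 1530 found on the reference genome alone (the B6 genome, mm10) and 53 found on the second genome alone, a reading of their suffixes LNK, REF and ALT. The 63963 other peaks divided into 46512, 14194 and 3257. The labels and headers do not say how the F1 peaks were called and joined to the rest. Since their name comes from F1, every comparison with F1 is given as a description. By their name they were absent from the set before F1 was added, so their levels in B6 and D2 may depend on that choice. Where F1 peaks are set beside other peaks in comparisons that use the founders, the counts are therefore descriptions too.

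H3K4me3 is laid down at active promoters, mostly at CpG-rich starts of transcription, and at a part of enhancers. In meiotic prophase the histone methyltransferase PRDM9 adds it at the sites where recombination begins, most of them away from promoters. An F1 nucleus carries 1 chromosome set from each parent. A BXD strain is homozygous almost everywhere and has fixed 1 of the founder alleles at each locus, so a peak whose level follows its own allele splits the strains into a high and a low class, while the F1 lies between the parents.

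Reference sequences of 300 bases are shown for the F1 peaks on which the results turn: the largest founder difference in each direction, the coding promoter with the highest mean CPM and the smallest p among strains. They are on the plus strand of GRCm38 (mm10), with CpG dinucleotides, the sites of DNA methylation that are dense at most promoters, in capitals. They lie at the centre of the peak, except that at Duxbl3 and Zfp36 the nearest window without annotated untranslated sequence was taken, 444 and 485 bases to the left of the centre.
nearest Glt1d1, chr5:127721523-127721822: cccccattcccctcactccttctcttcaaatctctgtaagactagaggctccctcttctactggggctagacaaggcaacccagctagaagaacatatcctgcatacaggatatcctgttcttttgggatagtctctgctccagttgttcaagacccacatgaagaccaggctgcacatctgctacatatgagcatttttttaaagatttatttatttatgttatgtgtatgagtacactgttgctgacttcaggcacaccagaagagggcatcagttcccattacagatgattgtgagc
promoter of Duxbl3, chr14:26258168-26258467: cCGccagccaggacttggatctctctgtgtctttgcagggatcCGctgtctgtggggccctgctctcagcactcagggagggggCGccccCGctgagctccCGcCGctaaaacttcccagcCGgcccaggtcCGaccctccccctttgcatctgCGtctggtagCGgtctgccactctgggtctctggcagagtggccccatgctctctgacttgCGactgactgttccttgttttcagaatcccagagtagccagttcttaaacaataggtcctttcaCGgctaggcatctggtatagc
promoter of Zfp36 and Plekhg2, chr7:28376484-28376783: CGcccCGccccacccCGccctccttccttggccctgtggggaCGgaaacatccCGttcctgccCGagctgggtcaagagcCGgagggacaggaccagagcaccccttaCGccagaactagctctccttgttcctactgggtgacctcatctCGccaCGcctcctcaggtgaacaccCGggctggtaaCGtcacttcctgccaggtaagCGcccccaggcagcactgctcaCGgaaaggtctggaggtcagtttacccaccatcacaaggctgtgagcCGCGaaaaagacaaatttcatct
nearest Itgb1bp1, chr12:21226096-21226395: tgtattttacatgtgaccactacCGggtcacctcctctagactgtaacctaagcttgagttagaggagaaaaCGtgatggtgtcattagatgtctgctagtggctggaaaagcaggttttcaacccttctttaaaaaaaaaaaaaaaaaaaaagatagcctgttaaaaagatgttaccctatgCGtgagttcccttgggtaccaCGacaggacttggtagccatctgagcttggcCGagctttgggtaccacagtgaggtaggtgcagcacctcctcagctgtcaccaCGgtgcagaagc
The intergenic window nearest Glt1d1 held 0 CpG and 44.3% GC, and the intronic window nearest Itgb1bp1 held 6 CpG and 46.0% GC. The Duxbl3 and Zfp36 windows held 12 and 16 CpG, with 60.0% and 61.3% GC.

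Reads in peaks ran from 6.93 to 16.4 M (1 M is 1000000 reads) in B6, 8.73 to 30.3 M in D2, 12.5 to 31.4 M in F1 and 1.87 to 18.6 M in BXD. The F1 peaks took 3.84 to 4.03% of these reads in B6, 3.97 to 4.14% in D2, 4.03 to 4.15% in F1 and 4.02 to 4.69% in BXD. The 4 libraries least like the others were those of BXD86, BXD11, BXD63 and BXD77, with a median Spearman correlation over all peaks of 0.847 to 0.880 with the other libraries. Levels are counts per 1000000 reads in peaks (CPM) after TMM scaling, and levels of different peaks are compared per kb of peak. Promoter peaks were found at 20 of 22 meiotic prophase genes, 13 of 20 pachytene and post-meiotic genes, 10 of 12 spermatogonial genes, 9 of 14 Sertoli and Leydig cell genes and 5 of 10 genes of other somatic cells. The somatic genes without one were Cyp11a1, Cyp17a1, Star, Insl3, Nr5a1, Ptprc, Cd68, Pecam1, Pdgfra and Hbb-bs, and the meiotic prophase genes without one were Smc1b and Mei1. Of these peaks 1 at Lin28a and 1 at Sox9 belong to the F1 peaks.

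The F1 peaks were a mixture of wide promoter domains and narrow weak sites. Those found on both genomes had a median width of 2634 bases, against 1971 among the other peaks found on both genomes, and 263 of them (16.8%) were wider than 5 kb, against 1145 (2.46%). Those found on the reference genome alone had a median width of 1143 bases and those found on the second genome alone 1162. The 2 annotated positions of a peak differed in width by more than 200 bases at 433 of the 1568 F1 peaks found on both genomes (27.6%), against 5.35% of the other peaks of that kind. The reference position was the wider one at 272 and the second at 161. A neighbouring peak lay within 1 kb of 267 of them (17.0%), against 6.09%. By chromosome, the F1 peaks made up from 3.91% of all peaks on chromosome 12 to 5.74% on chromosome 14.

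A transcription start lay within 1 kb of 882 F1 peaks (28.0%), against 29.0% of the other peaks, and 585 of these were starts of protein-coding genes. The share was 43.8% of those found on both genomes (36.7% among other such peaks), 11.8% of those found on the reference genome alone (7.94%) and 28.3%, 15 of 53, of those found on the second genome alone (10.6%). Of the remaining F1 peaks 174 had their centre in an exon, 892 in an intron and 1203 between genes. Among the 263 wider than 5 kb, 225 (85.6%) reached a transcription start. Peaks are neither independent nor sampled, so these shares carry no test.

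**Figure D1:**
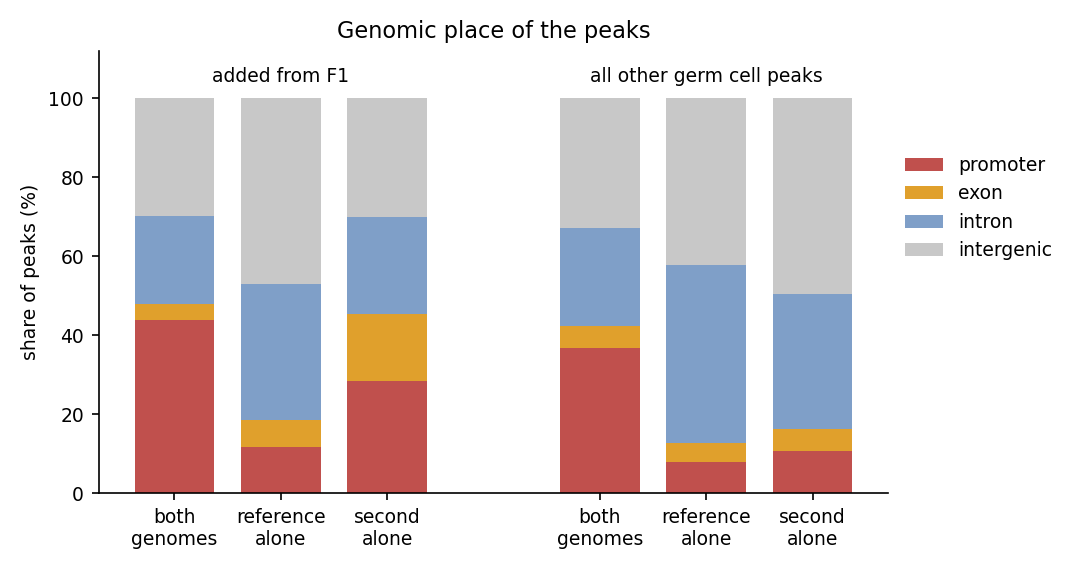
Stacked bars give the share of peaks (%) at a promoter (within 1 kb of a transcription start), in an exon, in an intron and between genes, for the F1 peaks (left) and all other germ cell peaks (right), by the genome on which they were found. Promoters took 43.8, 11.8 and 28.3% of the F1 peaks of the 3 kinds, and 36.7, 7.94 and 10.6% of the others.

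Peaks of other cell types met fewer F1 peaks than other peaks at an overlap of 50% of the length of both. Embryonic stem cell peaks did so at 790 F1 peaks (25.1%), against 35.9% of the other germ cell peaks, hepatocyte peaks at 322 (10.2%, against 12.7%) and cardiomyocyte peaks at 320 (10.2%, against 16.4%). Within kinds this did not always hold. Among peaks found on the reference genome alone the stem cell overlap ran the other way, 14.2% against 8.15%. Hepatocyte overlap at this setting ran the other way in each kind. It was 17.2% against 16.4% on both genomes, 3.33% against 2.73% on the reference alone and 3.77% (2 of 53) against 2.18% on the second alone. Cardiomyocyte overlap at this setting was lower for F1 peaks in each kind, with 0 of 53 on the second alone. With 1 shared base, F1 peaks found on both genomes met a stem cell peak in 59.6% (59.5% of the other peaks of that kind), a hepatocyte peak in 34.2% (31.6%) and a cardiomyocyte peak in 36.6% (32.9%). Those found on the reference alone then met a hepatocyte peak in 8.30% (9.43%), and those on the second alone in 7.55% (6.08%). As shares of the other lists, F1 peaks met 1.18% of 67192 stem cell peaks, 1.11% of 29138 hepatocyte peaks and 1.34% of 23809 cardiomyocyte peaks. Of the 2269 F1 peaks away from promoters, 1399 (61.7%) shared no base with a peak of any of these cell types, against 56.8% of other such peaks.

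In the middle 300 bases the F1 peaks had a median GC content of 49.0%, against 49.7%, and a median of 11.7% of bases masked as repeats, against 8.33%. An observed to expected CpG ratio of at least 0.6 was reached by 499 (15.8%), against 22.9% of the others. It was 32.7% against 51.5% among promoter peaks, 25.5% against 47.8% among peaks wider than 5 kb and 9.30% against 11.2% away from promoters. Motifs were counted as exact letters on either strand, overlaps included. The GC box GGGCGG, bound by SP factors, was present in 15.6% (19.6% of the others), CCAAT, the NF-Y box, in 34.1% (32.1%), and a CTCF core in 2.92% (2.84%). The cAMP response element was found in 11 (0.349%, against 0.658%), the NRF1 motif in 26 (0.825%, against 1.62%), and the RFX X-box in 1.

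Per length, the F1 peaks found on both genomes stood lower than the other peaks of their kind. Their medians were 4.72 CPM per kb in B6, 5.15 in D2, 4.92 in F1 and 5.32 in the median BXD strain, against 5.54, 5.66, 5.64 and 5.92. Those found on the reference genome alone stood lowest in B6 itself, with 1.55 CPM per kb, then 1.78 in D2, 1.95 in F1 and 2.14 in the median strain. The other peaks found on the reference genome alone ran the opposite way between the founders, with 2.75 in B6 and 1.67 in D2. The 53 found on the second genome alone had medians of 0.575 in B6, 3.29 in D2, 2.48 in F1 and 3.71 in the median strain. By place and over all kinds, F1 peaks at promoters had medians of 5.60 in B6 and 6.26 in F1, against 9.39 and 9.68 of other promoter peaks. Away from promoters it was 1.78 and 2.19, against 3.56 and 3.42. These are medians over peaks of mean levels, not tests, and they cannot be told apart from how the peaks of each set were found.

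**Figure D2:**
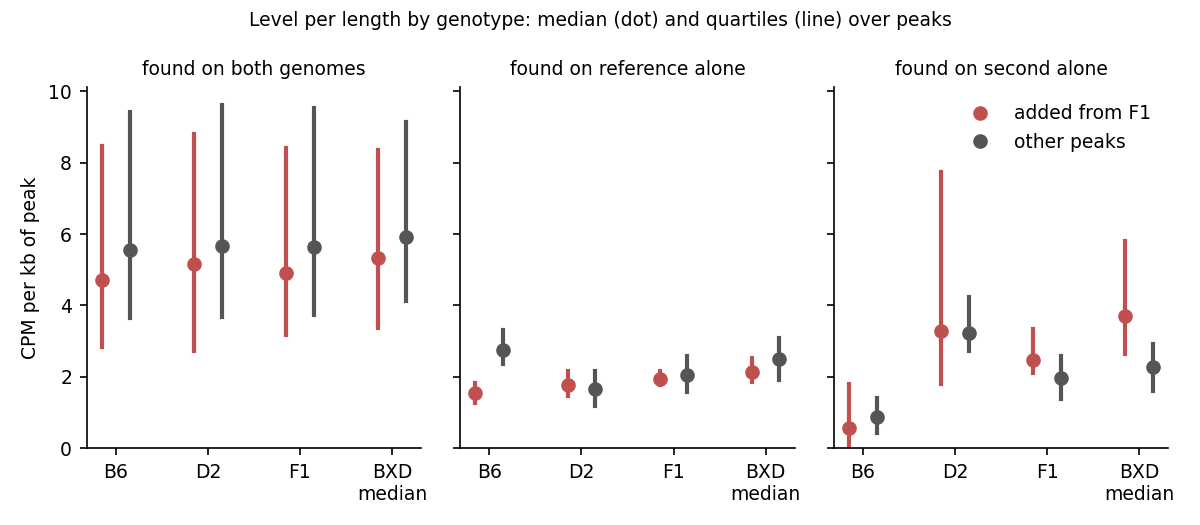
Dots are medians and lines the quartiles over peaks of the level in CPM per kb, for the mean of B6, D2 and F1 libraries and the median of 61 BXD strains, in F1 peaks (red) and other peaks (grey). Among peaks found on the reference genome alone the F1 peaks have their lowest median in B6 (1.55) and the other peaks their highest (2.75).

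The founders were compared to see where the added peaks differ between the parental genomes. Of the 3151 F1 peaks, all of which were tested, 637 differed between B6 and D2 (edgeR quasi-likelihood test, adjusted p under 0.05), 257 higher in B6 and 380 lower. The share, 20.2%, was near that of all peaks, of which 20.1% were called (10.7% higher and 9.38% lower). By kind, F1 peaks found on both genomes were called in 26.0% (200 higher, 207 lower), against 12.4% of the other peaks found on both. Those found on the reference genome alone were called in 12.6%, with 57 higher in B6 and 136 lower. The other peaks found on the reference genome alone had 4484 higher and 2 lower among 14194. These directions cannot be told apart from how the peaks of each set were found, before or after F1 was added. Those found on the second genome alone had 37 of 53 called (69.8%), all lower in B6, as were the 2592 called of 3256 other peaks of that kind (79.6%). The median log2 of B6 minus D2 over all F1 peaks was -0.15, beside -0.01 for the other peaks. With only peaks of at least 50 reads in every library of 1 group, 1307 F1 peaks were tested and 323 called (24.7%, 172 higher in B6 and 151 lower), while 14.4% of all peaks were called.

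Away from promoters 508 of 2269 F1 peaks (22.4%) were called between the founders, against 24.6% of other such peaks. At promoters it was 129 of 882 (14.6%), against 8.99%. Among the 263 wider than 5 kb it was 24 (9.13%), 3 higher in B6 and 21 lower, and among 1148 other peaks of that width 67 (5.84%), 45 higher and 22 lower. The summed level of the 20 meiotic prophase promoter peaks was 863 to 929 CPM in B6, 1059 to 1095 in D2 and 1016 to 1149 in F1, and that of the 9 Sertoli and Leydig peaks 474 to 712, 448 to 547 and 506 to 586. Their part in the founder differences was not tested, and in such mixed cells fewer cells of a type and less of the mark per cell cannot be told apart.

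**Figure D3:**
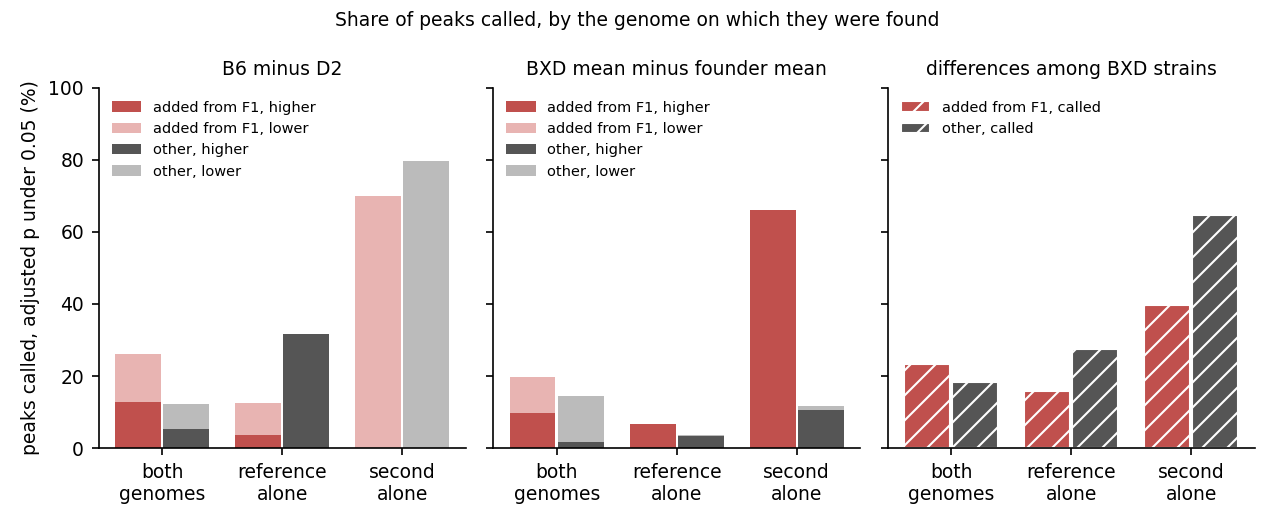
Bars give the share of peaks (%) called at an adjusted p under 0.05 in 3 comparisons, by the genome on which the peaks were found, for F1 peaks (red) and other peaks (grey), with higher (dark) and lower (light) stacked in the first 2 panels. Between B6 and D2 the other peaks found on the reference genome alone were nearly all higher in B6, and the F1 peaks of that kind were called in both directions.

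The largest founder differences among the F1 peaks were peaks without a single read in all 3 libraries of 1 founder. Nearest Glt1d1, a glycosyltransferase gene, an intergenic peak (chromosome 5, 127720004 to 127723341) stood at 28.4, 20.8 and 22.1 CPM in the B6 libraries B62, B63 and B64, at 0 in D2, and at 18.2, 21.9, 17.7 and 20.3 in F1. The 61 strains ran from 10.8 (BXD86) to 28.9 with a median of 20.9. Only the D2 libraries were at 0. The F1 library at 21.9 stood above B63 alone, the other F1 libraries lay below all of B6, and no strain approached 0. The B6 mean of 23.8 ± 4.05 CPM (SD, n = 3) was at least 475-fold above what 3 reads over the D2 libraries would give (edgeR adjusted p = 4.4e-17). Its width was 3338 bases on the reference and 2554 on the second genome.

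At the promoter shared by 6430590A07Rik and Abhd18, an alpha/beta hydrolase gene (chromosome 3, 40892827 to 40895056), B6 stood at 9.84, 12.2 and 12.1 CPM, D2 at 0, F1 at 9.48, 10.9, 10.4 and 10.6, and the strains at 7.53 to 15.8 with a median of 9.65. F1 and all strains were again far from 0, and B6 was at least 228-fold above the D2 limit (adjusted p = 6.1e-15). Nearest Clca3a1, a chloride channel regulator gene (chromosome 3, 144761947 to 144763474, intergenic), B6 stood at 8.13, 7.07 and 7.73 and F1 at 4.84, 4.50, 3.60 and 4.64, with D2 at 0. There the strains ran from 0.840 to 9.41 and none was at 0, and F1 stood below every B6 library. Nearest Pramel5, of the Prame-like family of germ cell genes (chromosome 4, 144265772 to 144266891, intergenic, 86.8% masked as repeat), B6 stood at 8.27, 4.38 and 5.46, D2 at 0 and F1 at 1.93, 3.19, 3.00 and 2.44, and 2 strains had no read. Both were called, with adjusted p of 5.1e-14 and 2.4e-11, and stood at least 153-fold and 121-fold above the D2 limit. The libraries of B6 and D2 did not overlap at these 4 peaks nor at 30.0% of all peaks.

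In the other direction 4 peaks found on the second genome alone had no read in B6. The peak at the promoter of Duxbl3, a double homeobox gene (chromosome 14, 26257315 to 26260208), stood at 53.7, 65.3 and 52.9 CPM in D2, 0 in B6, and 19.9, 38.3, 24.5 and 24.3 in F1. The strains ran from 27.2 to 73.4 with a median of 52.1. F1 lay below D2 in all libraries, while 20 of 61 strains lay above the D2 mean and none was near 0. D2, at 57.3 ± 6.94 CPM (SD, n = 3), was at least 548-fold above the limit of 3 reads in B6 (adjusted p = 9.2e-16). An intergenic peak 25948 bases from the start of Duxbl3 (chromosome 14, 26288206 to 26290363) stood at 17.1, 16.8 and 21.3 in D2, 0 in B6, 8.58, 22.1, 9.72 and 11.9 in F1, and 4.19 (BXD77) to 38.9 in the strains. F1 was split there, with library 2 above all of D2 and the others below. Duxbl3 and Pramel5 have near-identical copies, and the labels and headers do not say how reads were shared among copies.

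At the promoter of the predicted genes Gm2412 and Gm24305 (chromosome 12, 54733057 to 54734646), D2 stood at 35.4, 34.3 and 27.0 CPM, B6 at 0 and F1 at 11.0, 15.4, 11.0 and 11.7. The strains ran from 18.3 to 34.7 and every one lay above all F1 libraries. At Pabpc1l2b-ps, a pseudogene on chromosome X (103012343 to 103015120, centre in an exon), D2 stood at 19.6, 35.6 and 21.9, B6 at 0, F1 at 11.5, 21.8, 10.9 and 9.28, and the strains at 13.8 to 40.1. Both peaks were called, at least 308-fold and 246-fold above the B6 limit (adjusted p = 6.2e-17 and 6.2e-10). In total 12 F1 peaks had no read in B6, 11 of them found on the second genome alone, and 12 had none in D2, 9 of them found on the reference genome alone. Of the 63963 other peaks 44 had none in B6 and 58 none in D2. All 24 F1 peaks had reads in every F1 library, as had 42 of the 44 and all 58 of the other peaks. In 8 of the first 12 and 9 of the second 12, at most 3 of 61 strains stood below 0.25 of the level of the founder with reads, and so it was in 31 of the 44 and 35 of the 58 other peaks.

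How the BXD strains sort at a peak was described by the number of strains on the side of the higher founder, above the midpoint of both founders on the scale of log2(CPM + 0.5). Among the 481 F1 peaks called between the founders with a fold over 2, 345 (71.7%) had between 15 and 46 strains there, against 83.4% of the 8527 other such peaks. At 61 F1 peaks (12.7%) at least 58 of 61 strains stood with the higher founder, against 230 (2.70%). The share was 72.2% (26 of 36) for those found on the second genome alone, 11.1% (19 of 171) for the reference genome alone and 5.84% (16 of 274) for both. At promoters it was 27 of 76 (35.5%), away from them 34 of 405 (8.40%). The opposite case, with no strain beside the higher founder, occurred at 1 F1 peak. That peak, intergenic and 14377 bases from Gm6020 (chromosome 19, 61198267 to 61201259), stood at 279, 273 and 309.9 CPM in D2, 30.4, 43.6 and 47.8 in B6, 39.1, 45.5, 43.1 and 41.2 in F1, and 32.0 to 58.6 in the strains. Only the D2 libraries were high, and F1 and BXD stayed at the B6 level (log2 of B6 minus D2 -2.82, SE 0.19, adjusted p = 1.4e-12).

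**Figure D4:**
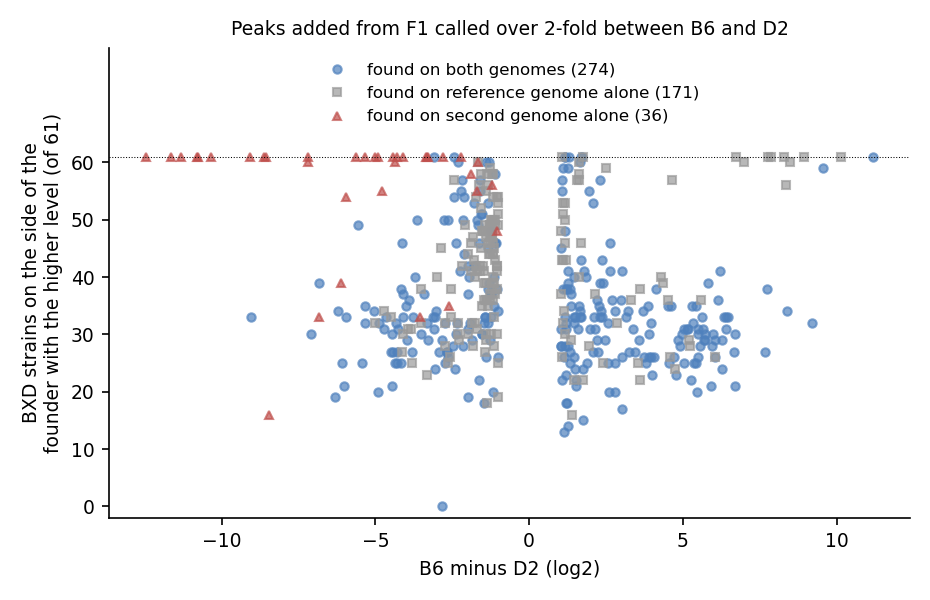
Each of 481 F1 peaks called over 2-fold between the founders is placed by its log2 of B6 minus D2 and by the number of BXD strains, of 61, that lie on the side of the founder with the higher level (dotted line, all strains). Most peaks found on both genomes lie between 15 and 46 strains, 22 of 36 found on the second genome alone lie at 61, and 1 peak lies at 0.

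Levels differed among the BXD strains at 630 F1 peaks (20.0%), while 22.7% of all peaks were called (edgeR quasi-likelihood test of all strain differences, adjusted p under 0.05). The 4 with the smallest p had 2 separate classes of strains. In an intron 28514 bases from Gm20535, with Itgb1bp1, an integrin-binding adaptor gene, as nearest coding gene (chromosome 12, 21225052 to 21227438), B6 stood at 45.5, 34.8 and 45.2 CPM, D2 at 0.361, 0.818 and 0.892 and F1 at 20.3, 25.2, 18.6 and 23.6. In this case 32 strains lay at or under 3.56 and 29 at or over 14.8, with none between, and F1 stood between the parents (strain differences, adjusted p = 9.8e-18). At the promoter of Gm13055 (chromosome 4, 141264702 to 141265607) D2 stood at 33.7, 31.9 and 37.9, B6 at 0.428, 0.212 and 0.133 and F1 at 7.84, 10.3, 8.60 and 8.77, with 31 strains at or under 1.20 and 30 at or over 14.6 (adjusted p = 1.5e-17). F1 thus fell into the gap that no strain occupied.

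Nearest Rnft1, a RING finger gene (chromosome 11, 86458463 to 86459924, intergenic), D2 stood at 11.7, 11.4 and 10.5 CPM, B6 at 0.713, 0.424 and 0.400 and F1 at 4.68, 5.25, 3.92 and 4.85. The strains fell into 34 at or under 2.48 and 27 at or over 9.13. At the promoter of Gm49193 (chromosome 14, 87159846 to 87163362, 3517 bases wide on the reference and 2083 on the second genome) B6 stood at 36.1, 23.5 and 34.1, D2 at 0.397, 0.572 and 0.382 and F1 at 14.0, 14.5, 15.3 and 18.4, with 35 strains at or under 3.07 and 26 at or over 8.29. Both had F1 between parents that did not overlap (strain differences, adjusted p = 1.0e-16 and 1.1e-16). The p-values rest on 15 residual degrees of freedom, from B6, D2, F1 and the 7 repeated strains. Without the libraries of BXD86, BXD11, BXD63 and BXD77, all of lot 2746331, the strain test called 431 F1 peaks and 11.9% of all peaks.

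**Figure D5:**
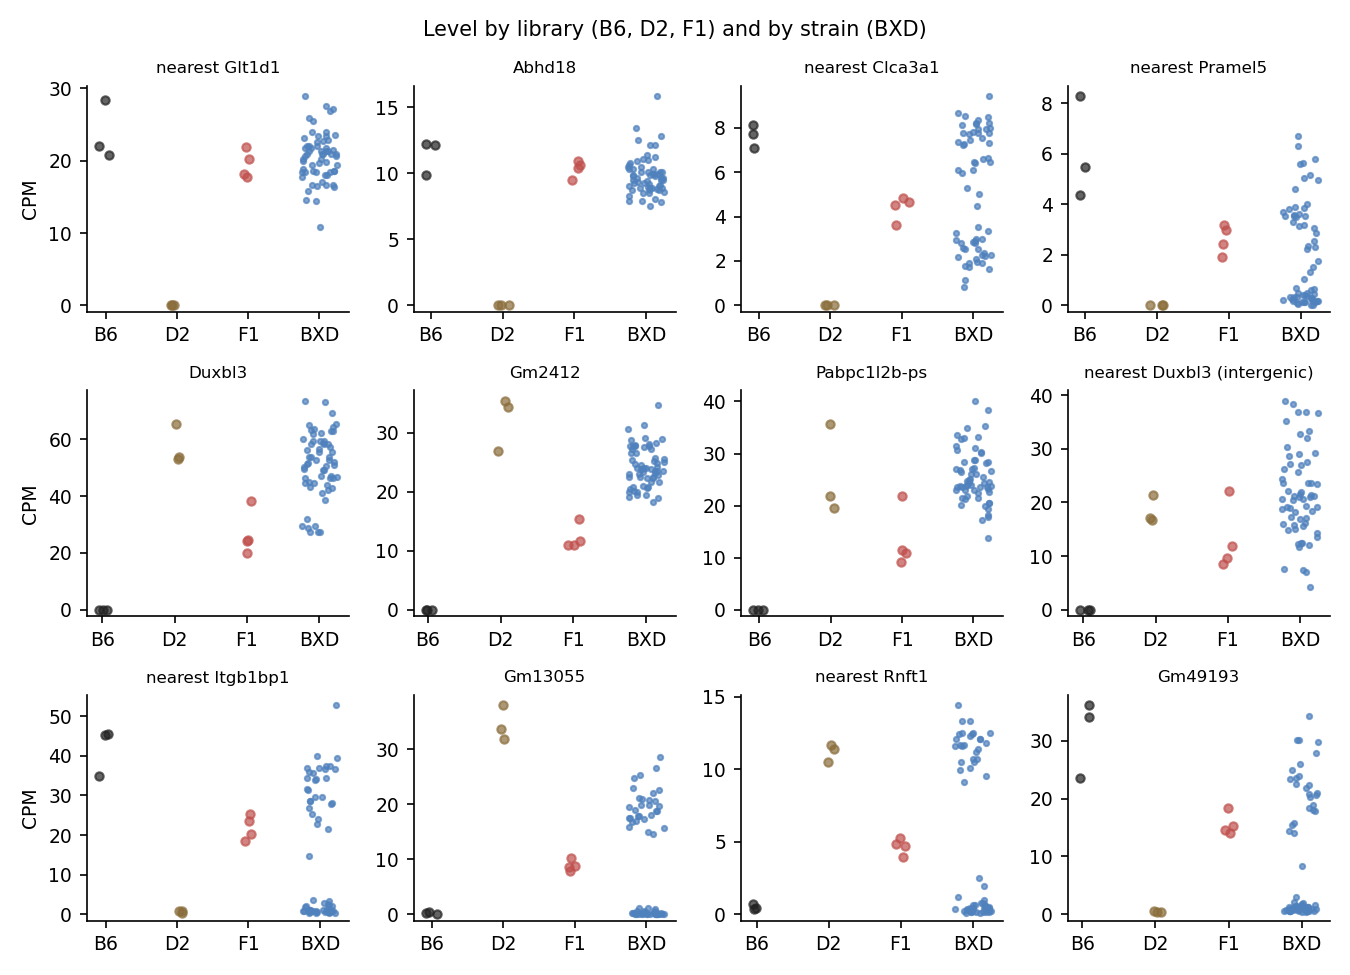
Points give the CPM of each B6, D2 and F1 library and the mean of each BXD strain at 12 F1 peaks, with the gene at or nearest to the peak above each panel. In the first 2 rows 1 founder is at 0, and at Glt1d1, Abhd18, Duxbl3, Gm2412 and Pabpc1l2b-ps no strain is near 0; in the third row the strains form 2 classes with F1 between the parents.

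Antibody lot goes with strain in the panel: 28 strains had libraries of lot 2557645 alone, the lot of B6, D2 and F1, and 32 of lot 2746331 alone. Between these strains 1408 of 3150 F1 peaks differed (44.7%), 496 higher with lot 2557645 and 912 lower, while 56.4% of all peaks were called (29.7% higher and 26.7% lower). The median log2 was -0.07 in F1 peaks and -0.01 in the others. A log2 of 1 in size was exceeded by 13 called of 3150 F1 peaks, and by 381 called of 63792 other peaks. At the strain-split peak nearest Itgb1bp1 the log2 between lots was 0.30 with an adjusted p of 0.657, and at Gm13055 it was 0.45 with 0.526. The strain medians of lots 2557645 and 2746331 were 3.20 and 9.14 CPM near Itgb1bp1, opposite in direction to the log2, and 9.51 and 0.766 at Gm13055. The SE of the log2 between lots was 0.52 near Itgb1bp1 and 0.58 at Gm13055, and lot and strain cannot be told apart at these peaks. Within lot 2557645 alone 435 F1 peaks differed among strains, against 13.9% of all peaks.

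Described against its parents, F1 was higher than B6 at 229 F1 peaks and lower at 84, while 6.45% of all peaks were called (3.58% higher and 2.87% lower). It was higher than D2 at 209 and lower at 115, while 6.83% of all peaks were called (3.16% higher and 3.67% lower). The comparisons share the F1 libraries. Against the mean of B6 and D2 on the log2 scale it was higher at 177 and lower at 4, and 1.99% of all peaks were called (1.53% higher, 0.459% lower). A level at the linear midpoint of unequal parents lies above their log2 mean, so this direction is not read as an excess of F1 over its parents. On the linear scale, among the 481 F1 peaks called over 2-fold between the founders, the F1 mean lay between the parents at 444 (92.3%), above both at 37 and below both at 0, and its median position was 0.527 of the way from the lower to the higher parent. The other such peaks had F1 between the parents at 94.7%, above both at 70 and below both at 381, with a median position of 0.373. Of the 37 above both parents, 27 were found on the reference genome alone. On chromosome X, of which a male carries 1 copy from its mother, F1 stood nearer to B6 at 3 of the 8 F1 peaks called over 2-fold. Among the other such peaks it did so at 68 of 141. By kind it was 1 of 1 F1 peak found on both genomes, 2 of 2 on the reference genome alone and 0 of 5 on the second genome alone.

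The F1 peaks farthest above the parents' log2 mean each had a founder at 0, which lowers that mean. Beside those of Glt1d1 and Duxbl3 they were 2 exonic peaks found on the second genome alone. The one nearest Nrbf2, a subunit gene of an autophagy kinase complex (chromosome 10, 67266713 to 67268413), stood at 4.10, 7.03, 4.48 and 5.47 CPM in F1, 0 in B6 and 0.108, 0.327 and 3.06 in D2, and at 0 to 28.9 (BXD20) in the strains, of which 24 lay above both founder means. The D2 libraries disagreed among themselves, and the founder call at this peak (adjusted p = 0.0339) was lost when any B6 library was left out. The one nearest Get4, which acts in membrane insertion of tail-anchored proteins (chromosome 5, 139268699 to 139270065), stood at 1.64, 2.72, 2.28 and 1.72 in F1, 0 in B6 and 0.181, 0.327 and 0.382 in D2. Its strains fell into 31 at or under 1.22 and 30 at or over 5.27, and 47 of 61 exceeded both founders. The strain differences were called (adjusted p = 5.6e-13). Lowest in F1 beside the Gm6020 peak was an intergenic peak 28564 bases from Gm20127 (chromosome 14, 112299852 to 112300611, 98.6% masked as repeat), at 1.48, 2.81, 1.72 and 1.65 in F1, 4.13, 3.11 and 4.13 in B6 and 6.28, 5.36 and 5.48 in D2.

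The added peaks were next described in BXD. The mean of the 28 strains of lot 2557645 was set against the mean of B6 and D2, both on the log2 scale. With a founder near 0 this founder mean is low, and a BXD level within the range of the founders can lie above it. The founders are the baseline here, and by their name F1 peaks were absent from the set before F1 was added. A BXD level above the founders at F1 peaks cannot be told apart from that choice. The BXD mean differed at 444 F1 peaks (14.1%), 287 higher in BXD and 157 lower. Of all peaks 12.0% were called, 2.82% higher and 9.18% lower. Those found on the reference genome alone had 101 higher (6.60%) and 0 lower, with 1 lower at an unadjusted p under 0.05, against 489 higher (3.45%) and 28 lower (0.197%) of the other peaks of that kind. Those found on the second genome alone had 35 of 53 higher (66.0%) and 0 lower, also at an unadjusted p, against 350 higher (10.7%) and 33 lower (1.01%). Those found on both genomes had 151 higher (9.63%) and 157 lower of 1568, against 769 higher (1.65%) and 5946 lower (12.8%). Away from promoters 222 were higher (9.78%) and 12 lower (0.529%), against 2.87% and 0.936% of other such peaks. At promoters it was 65 higher (7.37%) and 145 lower (16.4%), against 1.63% and 30.1%. In the same contrast 10 of the 20 meiotic prophase promoter peaks were lower and 0 higher. Over all 61 strains, of both lots, the sum of their strain medians was 767 CPM, against means of 886 in B6 and 1074 in D2. Their part in the result was not tested.

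The largest panel differences repeated peaks already described. The Duxbl3 promoter, the intergenic peak by Duxbl3 and Pabpc1l2b-ps, with no read in B6, were highest in BXD against the founder mean, and the Gm6020 peak was lowest, with a log2 of -1.45 (SE 0.09, adjusted p = 1.9e-12). An intergenic peak nearest Brinp3 (chromosome 1, 146367278 to 146368839) stood at 18.2, 17.2 and 21.4 CPM in D2, 0.285, 0.141 and 1.07 in B6, 4.84, 5.25, 4.76 and 5.74 in F1 and at 0.517 in the median BXD strain. Its strains split into 36 at or under 3.07 and 25 at or over 7.26. Its log2 of -1.28 against the founder mean (SE 0.31, adjusted p = 0.00434) was no longer called without library B64, where it was -0.72.

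The 6 F1 peaks at promoters of protein-coding genes with the highest mean CPM per peak over all 79 libraries, and the 4 highest in F1, together 7 peaks, were wide domains at which the libraries of B6, D2 and F1 overlapped. CPM per peak is not corrected for width, and the highest F1 peak away from promoters stood at 157 CPM in F1. The peak over Zfp36, whose RNA-binding protein triggers decay of AU-rich mRNAs, and its neighbour Plekhg2 (chromosome 7, 28370433 to 28383803), stood at 159, 239.5 and 205 CPM in B6, 200.2, 228 and 205 in D2 and 200.3, 220.0, 197 and 180.1 in F1, with strains from 121 (BXD1) to 232. The 3 groups overlapped, and the founder difference was a log2 of -0.07 (SE 0.16, adjusted p = 0.826). At Baz2a, a subunit gene of the nucleolar remodelling complex (chromosome 10, 128090321 to 128099222), B6 stood at 129, 198 and 168, D2 at 186, 206 and 162 and F1 at 179.8, 206, 182 and 157. These overlapped as well, and 56 of 61 strains lay below both founder means. At Hexim1, an inhibitor of the elongation factor P-TEFb (chromosome 11, 103110828 to 103119427), the means were 143 ± 18.8 in B6, 145 ± 5.43 in D2 (SD, n = 3 each) and 132 ± 9.55 in F1 (SD, n = 4).

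The wide peak over Ankrd34a, Lix1l and Polr3gl, the last a subunit gene of RNA polymerase III (chromosome 3, 96592380 to 96603429), had means of 146 ± 38.2 CPM in B6, 149.5 ± 12.2 in D2 and 147 ± 4.01 in F1, and all 61 strains, from 85.1 (BXD1) to 145 with a median of 121, lay below both founder means. They overlapped library B62, at 107, and D2 library 1, at 139.7. Kazald1, a secreted Kazal-type protein gene (chromosome 19, 45073336 to 45082489), had 149 ± 34.2, 146 ± 14.1 and 162 ± 7.34, and again all 61 strains, from 87.5 to 143 with a median of 119, lay below both founder means but overlapped library B62, at 111, and D2 libraries 1 and 3, both at 138. The panel mean was lower at Kazald1 by a log2 of -0.36 (SE 0.09, adjusted p = 0.00465), at Ankrd34a by -0.31 (SE 0.09, adjusted p = 0.0138) and at Baz2a by -0.30 (SE 0.09, adjusted p = 0.0231). The call at Ankrd34a was lost without library B63 or D2 library 2, and that at Baz2a without B63, B64 or D2 library 1 or 2. Among F1 peaks wider than 5 kb, the panel mean was lower at 45 of 263 (17.1%) and higher at 4. Among the 1148 other peaks of that width it was lower at 399 (34.8%) and higher at 6. The long noncoding gene Dleu2 (chromosome 14, 61679797 to 61690907) stood at 171 ± 31.9, 189 ± 14.8 and 173 ± 13.8. Gata6, a transcription factor gene of endoderm and gonadal somatic cells (chromosome 18, 11047523 to 11060160), stood at 127 ± 27.3, 110.0 ± 9.27 and 122 ± 11.9. Across these 7 peaks, adjusted p for strain differences ran from 0.670 at Gata6 to 1.000.

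At Lin28a, whose RNA-binding protein blocks let-7 maturation and marks undifferentiated spermatogonia (chromosome 4, 134016570 to 134021114), B6 stood at 27.2, 38.4 and 29.8 CPM, D2 at 50.3, 48.3 and 41.6 and F1 at 49.9, 50.8, 48.5 and 40.6. B6 was below D2 without overlap, by a log2 of -0.55 (SE 0.14, adjusted p = 0.00626), and 56 of 61 strains lay on the D2 side. At Sox9, the Sertoli cell transcription factor (chromosome 11, 112779573 to 112787925), B6 stood at 77.1, 124 and 86.7, D2 at 81.9, 88.0 and 68.2, F1 at 85.8, 83.6, 95.7 and 85.2, and the strains at 62.6 to 128 (BXD86). These ranges overlapped, and the founder difference was a log2 of 0.27 (SE 0.18, adjusted p = 0.307).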

How the data were processed

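The authors deposited raw read counts per germ cell peak, 1 column per library, with a list of the positions of each peak on both genomes, per the file headers. The submitters' processing notes name CASAVA 1.8, BWA 0.5.10, MACS 1.4.2 and mm10, with no role or order, and neither labels nor headers say how peaks from both genomes and from F1 were joined. The 3 B6 columns carry numbers that the labels do not use and were taken as unnumbered replicates. Nothing says that libraries of a strain came from separate animals, so p-values measure only the spread between libraries.

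Counts of 79 libraries were fitted in R 4.3.3 with edgeR 4.0.16, 1 coefficient per strain (filterByExpr, TMM, glmQLFit with robust estimation, quasi-likelihood F test), and p-values were adjusted by Benjamini-Hochberg over 67113 peaks, with 0.05 as the threshold. DESeq2 1.42.0 on 10 libraries, other scalings and filters, and libraries left out in turn were alternatives. Replicate numbers did not pair D2 and F1 libraries: correlations of their deviations were -0.0219, -0.0229 and -0.177. Places came from GENCODE M21 basic transcripts, overlaps from bedtools 2.31.1 and sequences from GRCm38, on which 0 peaks passed a chromosome end. Fold limits against 0 use 3 reads over the libraries of a group.

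The F1 peaks named were, by rule, the 4 with the largest founder difference in each direction among those called and without overlap, the 6 promoters of protein-coding genes highest over all libraries, the 4 highest in F1, the 4 highest and 2 lowest against the parents' log2 mean, the 4 with the smallest p among strains, the 3 highest and 2 lowest of the panel against the founders, and those at promoters of listed marker genes. The sequence nearest Itgb1bp1 was added to the rule. Members and lists were chosen with earlier results of these data known.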

Additional observations from a re-analysis of the deposited data

Results flagged for a closer look

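Of 32 values checked for a library far from the others among the 4 of F1 (the levels of the named peaks, the share of reads in F1 peaks and the summed marker levels), 2 had one, where chance gives about 1 in 20. The summed level of the meiotic prophase promoter peaks was 1149 CPM in F1 library 2, and the next highest library stood at 1027. The summed level of the Sertoli and Leydig promoter peaks was 586 CPM in F1 library 3, and the next highest stood at 514. None of the named F1 peaks had such a library.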

How the results depend on the processing

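Peaks of at least 50 reads in every library of B6, D2 or F1 left 1307 F1 peaks to test and called 323 between B6 and D2 (172 higher, 151 lower; 14.4% of all peaks), 170 between F1 and B6 (5.04%), 214 between F1 and D2 (5.05%), 107 between F1 and the parents' mean (1.76%) and 248 among strains (13.6%), which are fewer in part because fewer peaks were tested. In the other alternatives the counts of the founder, F1 and panel comparisons stayed within 1.5 times those reported. With each library of B6, D2 and F1 left out in turn they ran from 495 to 752 for B6 minus D2, 212 to 410 for F1 minus B6, 265 to 332 for F1 minus D2, 148 to 171 for F1 minus the mean and 316 to 574 for the panel. With the replicate block, F1 minus D2 had 277 calls against 329 in the same libraries without it. With the replicate block in the 7 repeated strains, 359 differed among strains (8.95% of all peaks), against 461 (12.3%) without it. Replicate number paired nothing: 0 of 3 D2 libraries correlated best with the F1 library of their number. The strain count was 2199 in lot 2746331 alone (69.6% of all peaks), a fit with 2 residual degrees of freedom, and the cause was not tested. It was 636 without 3 BXD libraries under 3 M reads, chosen after seeing the data, as was leaving out the 4 libraries least like the others. At Duxbl3 the strain call was lost with DESeq2 size factors.

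The promoter share was 26.5% within 500 bases and 32.1% within 2 kb (27.8% and 31.7% of other peaks). With 1 base of overlap, 42.4% met a stem cell peak, 21.2% a hepatocyte peak and 21.7% a cardiomyocyte peak. In the middle 200 bases and the whole peak, the GC box was found in 11.6% and 44.8% (14.6% and 43.9% of others), CCAAT in 24.6% and 87.7%, the CTCF core in 2.00% and 18.7%, and a CpG ratio of at least 0.6 in 18.9% and 4.19% (25.1% and 5.58% of others). No named peak called in a comparison changed direction. The shallowest library held 1.87 M reads.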
